A study of Mus musculus with 6 samples.

Results

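The genes described here are 8 genes of the sarcomere, namely the alpha-actinins Actn2 and Actn3, the myozenins Myoz1, Myoz2 and Myoz3, and the tropomyosins Tpm1, Tpm2 and Tpm3, out of 34714 gene symbols counted by RNA-seq in gastrocnemius (Gas) muscle. They were selected by symbol as Z-disc and thin filament genes with a bias towards a fibre type, with their difference between the genotypes in these same libraries already known, so that this difference is given below as a description without a test. All 8 were among the 15788 genes with enough counts to be compared. Gas muscles came from 3 WT mice and 3 M92KO mice, all 8 weeks old, untreated and housed with free access to a standard diet. The paper describes the knockout mice as male. Its methods describe an overnight fast before muscles were taken, without naming the sequenced mice. M92KO mice were miR-92b-/- animals of the strain C57BL/6JGpt- Mir-92bem22Cd549/Gpt, which lack the microRNA in every tissue, and the WT controls were age-matched C57BL/6 mice. The knockout was therefore not limited to muscle, and the controls were described as matched for age, not as littermates.

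The Z-disc is the border between neighbouring sarcomeres, where alpha-actinin crosslinks the ends of the actin filaments. Actn2 is the alpha-actinin of all muscle fibres and of the heart, whereas Actn3 is made in fast fibres. Myozenins, also called calsarcins, bind alpha-actinin and the phosphatase calcineurin, which dephosphorylates the transcription factors of the NFAT family. Myoz2 is known from slow fibres and the heart, and Myoz1 and Myoz3 from fast fibres. Tropomyosins are coiled coils that lie along the actin filament and, with the troponins, control access of myosin to it. Tpm1 gives the fast muscle form, Tpm2 is found in fast and slow fibres, and Tpm3 gives the slow muscle form. All 3 tropomyosin genes also give forms of other cells, and the counts per gene merge these forms.

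The microRNA that M92KO mice lack has 2 mature forms, and both are shown because their seeds were searched for in the 8 genes. They are written 5′ to 3′ as in RefSeq, with the seed (bases 2 to 8) in capitals. The first lies at chr3:89227126-89227147 and the second at chr3:89227165-89227188, both on the minus strand of GRCm38.
miR-92b-3p: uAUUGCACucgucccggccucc
miR-92b-5p: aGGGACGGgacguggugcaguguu
The count of the microRNA's own gene was not analysed here, so the counts give no check of the genotype labels.

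Library totals ran from 38246649 to 48209846 counts in WT and from 33160508 to 37019640 counts in M92KO, with no overlap between the genotypes. Values are given as CPM, counts scaled to library size after TMM normalization. No member had fewer than 1772 counts in any library. Markers of skeletal muscle fibres (8 of 8 detected) summed to between 107387 and 116594 CPM in WT and between 109185 and 113633 CPM in M92KO. Markers of cardiac muscle summed to between 6.04 and 9.55 CPM over all 6 libraries, with Nppb at or under the floor of 3 counts in each of them. M92KO replicate 1 stood apart from the other 2 M92KO libraries. Its counts differed from theirs by a chi-square of 57.4 and 57.5 per degree of freedom, against 10.9 between M92KO 2 and 3 and between 12.8 and 29.6 among the WT libraries. The members' differences, and many of the other results, are therefore given with and without it. Nothing in the labels says how the mice were spread over cages or days, so SDs and p-values measure the spread between these libraries, which may be partly technical.

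Levels of the 8 genes spanned more than 2 orders of magnitude. On the scale of CPM per kb of transcript, which allows genes to be compared, Tpm1 was highest in WT at 8015 ± 569 (SD, n = 3), followed by Tpm2 at 3120 ± 159, Actn3 at 1699 ± 260, Myoz1 at 1518 ± 95.0 and Actn2 at 416 ± 43.9. Myoz3 at 49.2 ± 2.57, Myoz2 at 46.3 ± 5.36 and Tpm3 at 29.8 ± 2.72 formed the low end. Tpm1 was 269-fold above Tpm3 per kb, a ratio that rests on the median transcript length taken for each gene. Within this order the WT ranges of Actn3 and Myoz1 overlapped, as did those of Myoz3 and Myoz2, and the other neighbours did not overlap. In M92KO the order per kb differed at both of these places, with Myoz1 (1574 ± 196) ahead of Actn3 (1539 ± 251) and Myoz2 (79.6 ± 29.5) ahead of Myoz3 (52.7 ± 2.80), and both pairs again overlapped. Actn3, Myoz1 and Tpm1 were the most abundant members of their families in both genotypes.

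Actn2 (chr13:12269426-12340760, minus strand, GRCm38), the alpha-actinin of all fibres, was at 1265, 1348 and 1093 CPM in WT and at 1259, 2348 and 2167 CPM in M92KO. M92KO 2 and 3 lay far above every WT library, and M92KO 1 lay inside the WT range, so the groups overlapped. The mean was 1235 ± 130 CPM in WT and 1925 ± 584 CPM in M92KO (n = 3 each), a log2 fold change of 0.64 (SE 0.21), or 1.56-fold. Without M92KO 1 the log2 fold change was 0.87 (SE 0.09), without M92KO 2 it was 0.47 (SE 0.22) and without M92KO 3 it was 0.55 (SE 0.24).

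Actn3 (chr19:4861216-4877909, minus strand), the fast-fibre alpha-actinin, was at 4219, 4789 and 5704 CPM in WT and at 5243, 3829 and 4258 CPM in M92KO. Here M92KO 1 was the highest of its group and M92KO 2 the lowest of all 6 libraries, and the groups overlapped broadly. The log2 fold change was -0.14 (SE 0.15), and -0.28 (SE 0.12) without M92KO 1. Within the pair, counted per kb, Actn2 made up 22.6%, 21.5% and 15.7% of alpha-actinin transcripts in WT and 18.9%, 37.4% and 33.1% in M92KO. The share was 19.9% ± 3.70 in WT and 29.8% ± 9.65 in M92KO (SD, n = 3), a difference of 9.88 percentage points, which was 15.3 without M92KO 1 and 6.10 without M92KO 2. A share is a ratio inside a library and does not depend on the scaling between libraries.

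**Figure D1:**
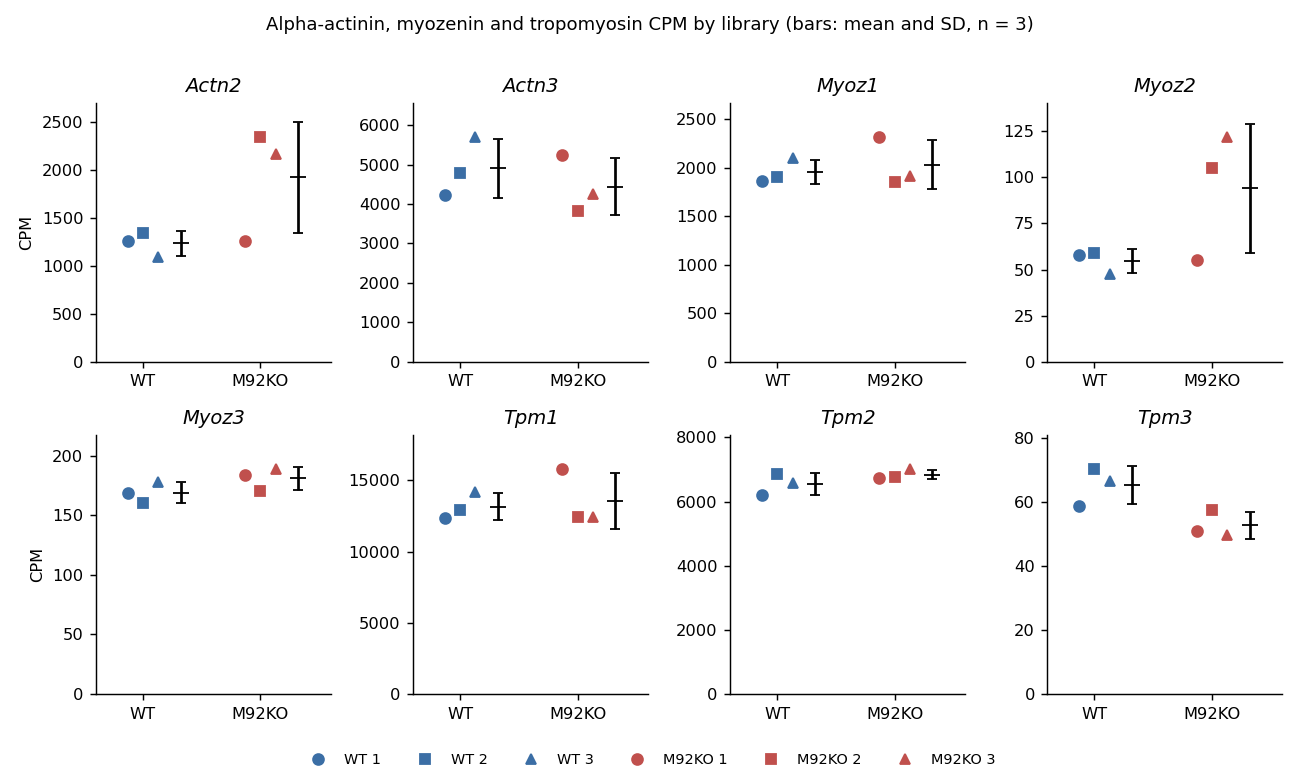
CPM (vertical axes, from 0) of the 8 genes in the 3 WT (blue) and 3 M92KO (red) libraries, with the mean and SD of each group in black and the replicate number given by the marker shape. Actn2 and Myoz2 are high in M92KO 2 and 3 and at the WT level in M92KO 1, whereas all 3 M92KO values of Tpm3 lie under all 3 WT values.

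Myoz2 (chr3:123006206-123035015, minus strand), the myozenin of slow fibres and heart, was at 57.9, 58.8 and 47.4 CPM in WT and at 55.0, 105 and 122 CPM in M92KO. Like Actn2, it was high in M92KO 2 and 3 and inside the WT range in M92KO 1. The mean was 54.7 ± 6.33 CPM in WT and 94.0 ± 34.8 CPM in M92KO, a log2 fold change of 0.78 (SE 0.25), or 1.72-fold, the largest of the 8 genes. It was 1.05 (SE 0.10) without M92KO 1, 0.69 (SE 0.29) without M92KO 2 and 0.55 (SE 0.24) without M92KO 3. Myoz2 lies on the chromosome that carries the deleted microRNA, 33779 kb away from it.

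Myoz1 (chr14:20649107-20656540, minus strand), the main myozenin of fast fibres, was at 1867, 1907 and 2096 CPM in WT and at 2317, 1851 and 1917 CPM in M92KO. M92KO 1 held the highest value and M92KO 2 the lowest. The log2 fold change was 0.05 (SE 0.11) with all libraries and -0.05 (SE 0.07) without M92KO 1, so its sign rested on that library. Myoz3 (chr18:60573750-60591788, minus strand) was at 169, 161 and 178 CPM in WT and at 184, 170 and 189 CPM in M92KO, with a log2 fold change of 0.10 (SE 0.07), and 0.09 (SE 0.07) without M92KO 1. Its groups overlapped, and its SD was under 10 CPM in both. Of all myozenin transcripts, counted per kb, Myoz2 made up 3.17%, 3.16% and 2.34% in WT and 2.45%, 5.65% and 6.28% in M92KO. The means differed by 1.90 percentage points, by 3.07 without M92KO 1 and by 1.16 without M92KO 3. Myoz1 made up 94.1% ± 0.518 in WT and 92.1% ± 2.31 in M92KO.

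Tpm3 (chr3:90072649-90100902, plus strand), which gives the slow muscle tropomyosin, was at 58.7, 70.3 and 66.6 CPM in WT and at 51.0, 57.4 and 49.5 CPM in M92KO. It was the only one of the 8 genes whose groups did not overlap with all 6 libraries, although the highest M92KO and the lowest WT value were close together. The mean was 65.2 ± 5.95 CPM in WT and 52.6 ± 4.17 CPM in M92KO, a log2 fold change of -0.31 (SE 0.09), and -0.29 (SE 0.10) without M92KO 1. The Tpm3 gene lies 845.5 kb from the deleted microRNA on the same chromosome. The annotation holds 2 further loci derived from Tpm3, the retrogene Tpm3-rs7 and the pseudogene Tpm3-rs2, and how reads shared with them were assigned is not given in the sources used here.

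Tpm1 (chr9:67022590-67049406, minus strand) was at 12385, 12898 and 14196 CPM in WT and at 15800, 12410 and 12412 CPM in M92KO. M92KO 1 held the highest value, and the other 2 M92KO libraries were near the lowest WT value. The log2 fold change was 0.04 (SE 0.13), and -0.08 (SE 0.08) without M92KO 1. Tpm2 (chr4:43514711-43523765, minus strand) was the steadiest of the abundant genes, at 6203, 6869 and 6566 CPM in WT and 6733, 6776 and 7015 CPM in M92KO, with a log2 fold change of 0.06 (SE 0.09), and 0.08 (SE 0.07) without M92KO 1. Per kb, Tpm1 made up 71.8% ± 1.43 of tropomyosin transcripts in WT and 71.3% ± 3.09 in M92KO, and Tpm2 28.0% ± 1.41 and 28.5% ± 3.07. Tpm3 made up 0.254%, 0.288% and 0.258% in WT and 0.181%, 0.242% and 0.207% in M92KO. The difference of the means was -0.0564 percentage points, and -0.0419 without M92KO 1. These shares rest on a median transcript length for each gene. The 16 coding transcripts of Tpm1 range from 887 to 2890 bases (median 1642), and the Tpm3 transcripts from 1090 to 2233 bases.

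**Figure D2:**
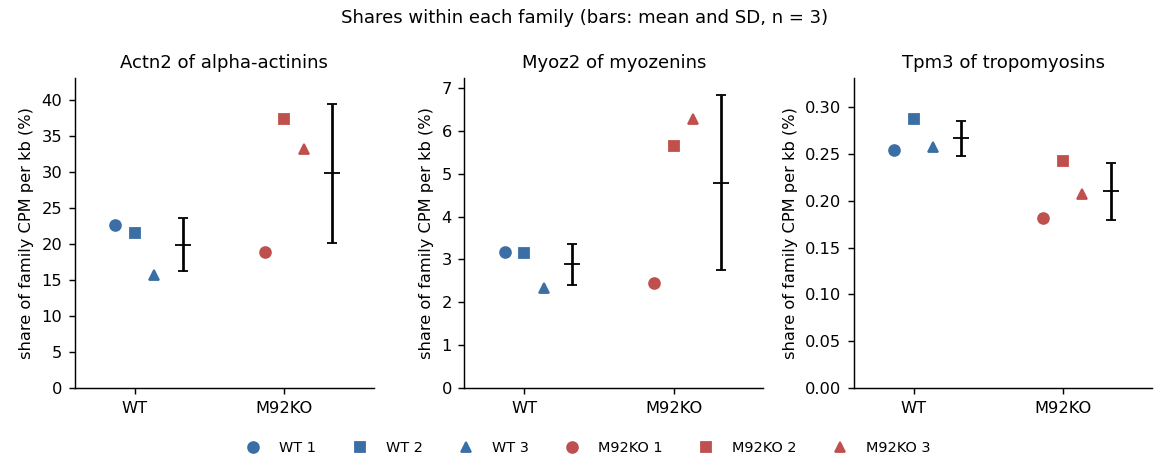
Share (vertical axes, in % of the family's CPM per kb, from 0) of Actn2 among the alpha-actinins, of Myoz2 among the myozenins and of Tpm3 among the tropomyosins in each library, with the mean and SD (n = 3) in black. The Actn2 and Myoz2 shares of M92KO 2 and 3 lie above those of every other library, at 33.1% and 37.4% for Actn2, and the Tpm3 shares of M92KO lie under those of WT.

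Because the genes were chosen with this contrast known, the counts that follow describe the choice. With all libraries, 2 members (Actn2 and Myoz2) were higher and 1 (Tpm3) was lower at an unadjusted p-value under 0.05 in edgeR's quasi-likelihood test, and over all genes tested 12.4% were below that threshold, 5.47% higher and 6.92% lower. After Benjamini-Hochberg adjustment in edgeR 0 members passed, as did 0.0% of all genes, and the smallest adjusted p-value of any gene was 0.124. DESeq2's Wald test gave 1 member (Actn2) an adjusted p-value under 0.05, against 2.19% of the genes it adjusted. Actn2 was below the unadjusted threshold of edgeR in 3 of the 6 fits that left out 1 library (not without WT 3, M92KO 2 or M92KO 3), Myoz2 in 5 (not without M92KO 3) and Tpm3 in 6, and with the steps of the study methods (quantile normalization, log2 and limma) Tpm3 alone was below it. The groups of 1 member (Tpm3) did not overlap, against 18.4% of all genes. Without M92KO 1, 3 members were below the unadjusted threshold (18.6% of all genes), 2 of them (Actn2 and Myoz2) below it after adjustment in edgeR (2.5% of all genes), and 3 members had groups that did not overlap (37.3% of all genes). Without M92KO 3, 1 member was left below the unadjusted threshold (10.6% of all genes). The number of members that did not overlap was 2 without WT 2 (24.9% of all genes), WT 3 (26.0%) or M92KO 2 (28.8%). The median log2 fold change of the 8 genes was 0.06, and that of all genes was 0.0.

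**Figure D3:**
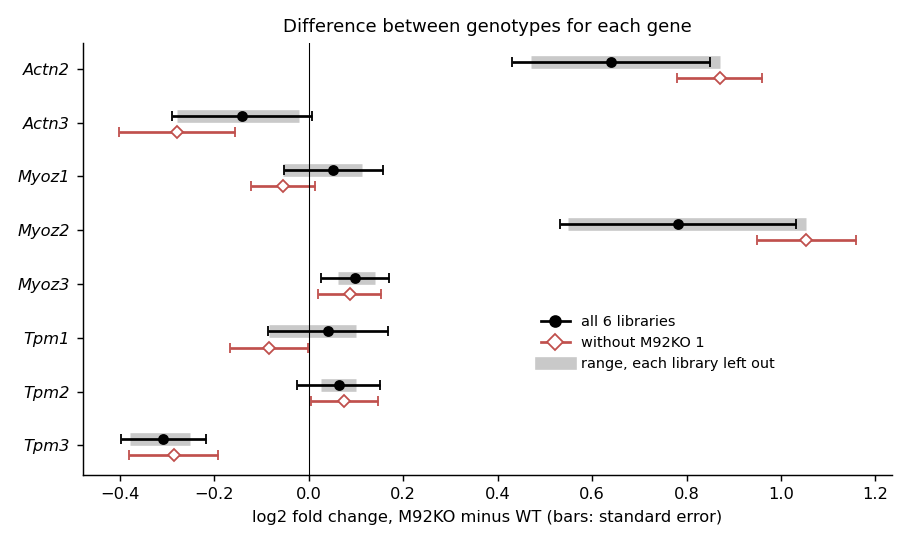
Log2 fold change, M92KO minus WT (horizontal axis), of the 8 genes from all 6 libraries (black, with SE) and without M92KO 1 (red, with SE), over the grey range of values obtained when each library in turn was left out. Actn2 stays between 0.47 and 0.87, Myoz2 between 0.55 and 1.05 and Tpm3 between -0.38 and -0.25, whereas the ranges of Myoz1 and Tpm1 lie on both sides of 0.

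The myosin heavy chains show which fibres the RNA came from. Fast type IIB (Myh4) and IIX (Myh1) myosin dominated, with Myh4 at 25488 ± 3020 CPM in WT and 26489 ± 4473 CPM in M92KO. Slow myosin (Myh7) was at 2.47, 3.26 and 12.7 CPM in WT and 2.76, 9.50 and 3.72 CPM in M92KO, and the slow troponin T gene Tnnt1 at 5.26 ± 0.851 and 4.18 ± 0.715 CPM. In a bulk muscle sample, fewer fibres of a type and less RNA per fibre cannot be told apart. Type IIA myosin (Myh2) was at 2124, 2239 and 1612 CPM in WT and at 2018, 3575 and 4099 CPM in M92KO, with a log2 fold change of 0.70 (SE 0.24) and an adjusted p-value of 0.314 by edgeR. It was high in M92KO 2 and 3, as Actn2 and Myoz2 were, and its part in their values was not tested. Without M92KO 1 the Myh2 log2 fold change was 0.95 (SE 0.13). By qPCR in Gas muscle of WT and M92KO mice, the paper reported no difference in fibre-type genes, Myh2 and Myh4 among them.

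Over the libraries, 2 profiles were each shared by some of the 8 genes. Actn2, Myoz2 and Myh2 shared a profile, lowest in WT 3, at about the WT mean in M92KO 1 and highest in M92KO 2 and 3. Actn3, Myoz1 and Tpm1 had M92KO 1 and WT 3 as their highest pair of libraries, as did Myh4 at 31515 and 28844 CPM. Myh1 was lowest in M92KO 1, at 9664 CPM against between 14346 and 17205 CPM in the other libraries. Myoz3, Tpm2 and Tpm3 followed neither profile, and M92KO 3 was the highest library for Myoz3 and Tpm2 and the lowest for Tpm3. These are descriptions over 6 libraries in which the profile of M92KO 1 carries much weight.

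**Figure D4:**
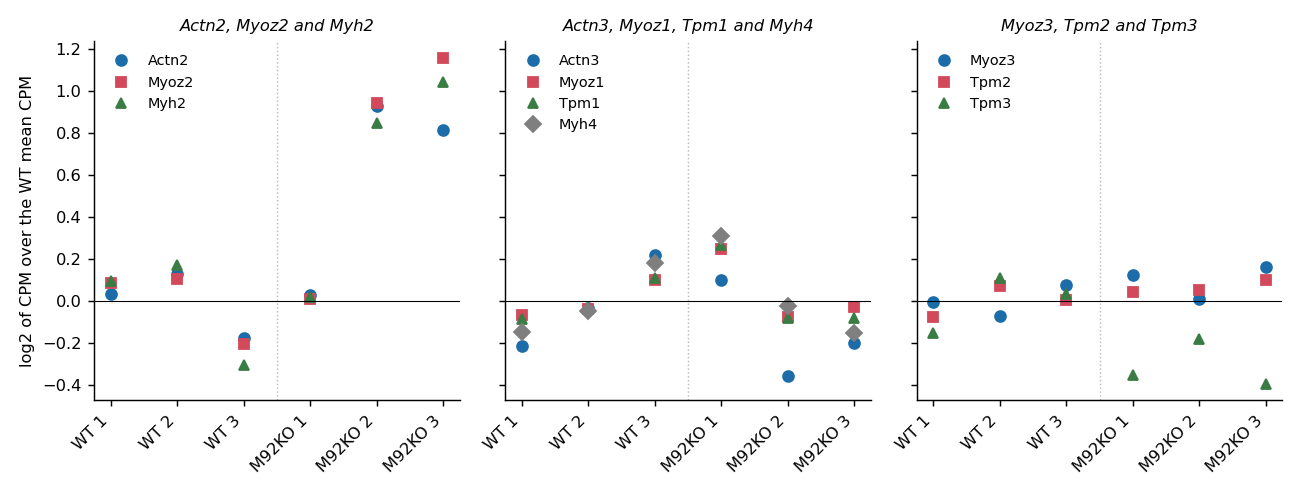
Log2 of CPM over the WT mean CPM (vertical axis) in each library (horizontal axis) for Actn2, Myoz2 and Myh2 (left), Actn3, Myoz1, Tpm1 and Myh4 (middle) and Myoz3, Tpm2 and Tpm3 (right). Actn2, Myoz2 and Myh2 lie above the other libraries in M92KO 2 and 3, the middle set is highest in M92KO 1 or WT 3, and Tpm3 is under the WT mean in every M92KO library.

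Other proteins of the Z-disc were examined as a list of 25 genes, none of them a member, and all 25 were tested. This list and those below were chosen with earlier results of these data known, so their counts and shares are descriptions. Of these, 13 were higher and 0 lower in M92KO at an unadjusted p-value under 0.05, 52.0% of the list against 12.4% of all genes, and the list had a median log2 fold change of 0.25 against 0.0. After adjustment over all genes 0 passed in edgeR, and 7 passed in DESeq2 (Ldb3, Pdlim3, Pdlim5, Csrp3, Synpo2l, Des and Cryab). The groups of 11 did not overlap, against 18.4% of all genes. Without M92KO 1, 15 were higher and 1 lower, in a fit where 18.6% of all genes were below the threshold. With the steps of the study methods 7 were higher and 0 lower, against 6.59% of all genes in that fit, which tested every symbol. The 13 genes had adjusted p-values between 0.179 and 0.388 by edgeR, and 20 of the 25 had a log2 fold change above 0. Summed over the list, the level was 25500, 26472 and 24718 CPM in WT and 28439, 37915 and 35143 CPM in M92KO, so that M92KO 1 too lay above every WT library here, by a smaller margin than M92KO 2 and 3.

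Csrp3, the muscle LIM protein that binds alpha-actinin and the titin cap at the Z-disc, stood out. It was at 49.5, 81.3 and 36.8 CPM in WT and at 126, 764 and 454 CPM in M92KO, with no overlap and a spread between the M92KO libraries far wider than that in WT. Its log2 fold change was 3.0 (SE 0.58, adjusted p = 0.179 by edgeR), or 8.02-fold, and 3.45 (SE 0.33) without M92KO 1. Cryab, the small heat shock protein that protects desmin and other Z-disc proteins, was at 580, 585 and 563 CPM in WT and at 775, 1725 and 1166 CPM in M92KO, a log2 fold change of 1.08 (SE 0.24, adjusted p = 0.179 by edgeR), and 1.33 without M92KO 1.

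Ldb3, also called Cypher or ZASP, which ties alpha-actinin to the Z-disc through its PDZ domain, was at 2473, 2408 and 2297 CPM in WT and at 2924, 3707 and 3507 CPM in M92KO, a log2 fold change of 0.50 (SE 0.10, adjusted p = 0.179 by edgeR), and 0.59 without M92KO 1. Synpo2l, an actin- and alpha-actinin-binding protein, was at 194, 168 and 166 CPM in WT and at 220, 230 and 251 CPM in M92KO, a log2 fold change of 0.41 (SE 0.09, adjusted p = 0.179 by edgeR), and 0.45 without M92KO 1. In all 4 of these genes, which had the smallest p-values of the list, every M92KO library was above every WT library, M92KO 1 included, unlike in Actn2 and Myoz2. Among the other 9, chosen for mention after their values were seen, the log2 fold changes of the filamin Flnc (1.20, SE 0.36), of Fhl1 (1.13, SE 0.34) and of Xirp1 (1.29, SE 0.38) exceeded those of Actn2 and Myoz2. Without M92KO 1 they were 1.57, 1.46 and 1.66. The groups of Flnc, Fhl1, Xirp1 and Myot overlapped, as those of Actn2 and Myoz2 did. With the steps of the study methods none of these Z-disc partners with overlapping groups was below the unadjusted threshold. The 12 genes that did not pass had log2 fold changes between -0.20 and 0.27 and included the titin gene Ttn (0.11, SE 0.09), the titin cap Tcap (0.21, SE 0.10) and the capping protein subunits Capzb (0.00, SE 0.08) and Capza2 (-0.02, SE 0.07). Cryab shares exon bases with Hspb2 on the other strand, and whether counting used the strand is not given in the sources used here.

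Genes of the thin filament other than the tropomyosins were a list of 19, all tested. Of these, 3 were higher and 1 lower at an unadjusted p-value under 0.05 in edgeR, 21.1% of the list against 12.4% of all genes. After adjustment over all genes 0 passed in edgeR and 2 in DESeq2 (Klhl40 and Cap2). Without M92KO 1, 8 were higher and 3 lower at the unadjusted threshold, in a fit where 18.6% of all genes were below it. The list had a median log2 fold change of 0.08. Actc1, the cardiac actin that adult muscle keeps at a low level, was at 284, 433 and 484 CPM in WT and at 197, 180 and 290 CPM in M92KO, a log2 fold change of -0.85 (SE 0.22, adjusted p = 0.214 by edgeR), and -0.77 without M92KO 1. Its groups overlapped by a narrow margin, and the paper's qPCR of Actc1 in Gas muscle gave no difference between the genotypes. The higher genes were Cap2, an actin-binding protein (0.40, SE 0.11, adjusted p = 0.225), Klhl40 (0.46, SE 0.13, adjusted p = 0.231) and Klhl41 (0.49, SE 0.16, adjusted p = 0.281), the last 2 being proteins that protect thin filament components from breakdown. Without M92KO 1 the log2 fold changes of these genes were 0.51, 0.60 and 0.67. The groups of Klhl41 overlapped, with M92KO 1 at 777 CPM inside the WT range. Skeletal actin (Acta1) was at 26560 CPM in WT and 26689 CPM in M92KO on average, a log2 fold change of 0.01 (SE 0.10). The fast troponins Tnnt3 (0.03, SE 0.11), Tnni2 (0.08, SE 0.10) and Tnnc2 (0.06, SE 0.12) had differences within their SEs.

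Calcineurin and its partners, which the myozenins bind or which act after it, were a list of 15, all tested. The catalytic subunit gene Ppp3cc was the 1 gene higher in M92KO at an unadjusted p-value under 0.05, at 32.4, 31.8 and 32.4 CPM in WT and 33.7, 37.4 and 37.4 CPM in M92KO (log2 fold change 0.17, SE 0.07, adjusted p = 0.388 by edgeR), and 0 were lower. This was 6.67% of the list against 12.4% of all genes. After adjustment 0 passed in edgeR or DESeq2. The count was 5 without M92KO 1, where 18.6% of all genes were below the threshold, and 0 without any 1 of the other libraries. The regulator Rcan1, whose promoter responds to calcineurin, had the largest log2 fold change of the list (0.50, SE 0.26, adjusted p = 0.498 by edgeR). Without M92KO 1 its log2 fold change was 0.73, and it was among the 5 genes. The median of the list was 0.06.

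Slow-fibre genes were a list of 12, of which Csrp3 alone was below the unadjusted threshold (0 after adjustment in edgeR, 1 in DESeq2) and the median log2 fold change was -0.12. This was 8.33% of the list against 12.4% of all genes. The 12 genes summed to 395, 453 and 286 CPM in WT and to 322, 1026 and 801 CPM in M92KO. Apart from Csrp3, the 11 genes summed to between 249 and 372 CPM in WT and between 196 and 348 CPM in M92KO, with 262 and 348 CPM in M92KO 2 and 3. The highest of the 11 in WT were Myl3, Casq2 and Atp2a2, at means of 145, 83.9 and 64.5 CPM. The part of slow fibres in the values of Actn2 and Myoz2 was not tested. Fast-fibre genes were a list of 12 as well, with Myh2 alone below the unadjusted threshold (0 after adjustment in edgeR or DESeq2), again 8.33% of the list, and a median of 0.03. They summed to between 118681 and 132492 CPM in WT and between 118772 and 129721 CPM in M92KO. The number of fast-fibre genes below the threshold was 3 without M92KO 1 (1 higher and 2 lower) and 0 without WT 3, M92KO 2 or M92KO 3. That of slow-fibre genes was 3 without M92KO 3 (1 higher and 2 lower) and 2 without WT 3, M92KO 1 or M92KO 2 (1 higher and 1 lower each time). The higher slow-fibre gene was always Csrp3. Over all genes, 1272 were below the threshold without WT 3, 2984 without M92KO 1, 1691 without M92KO 2 and 1710 without M92KO 3.

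The relatives of the members in other cells were 3 genes, the non-muscle alpha-actinins Actn1 and Actn4 and the non-muscle tropomyosin Tpm4. Actn4 was at 105, 104 and 97.1 CPM in WT and at 76.0, 81.0 and 90.6 CPM in M92KO, without overlap, a log2 fold change of -0.31 (SE 0.08, adjusted p = 0.214 by edgeR), and -0.25 without M92KO 1. Tpm4 was at 96.6, 107 and 94.8 CPM in WT and at 71.5, 85.8 and 89.8 CPM in M92KO, also without overlap, a log2 fold change of -0.27 (SE 0.10, adjusted p = 0.325 by edgeR), and -0.18 without M92KO 1. The log2 fold change of Tpm3, whose gene also gives non-muscle forms, was -0.31 (SE 0.09). Of the 3 genes, 2 (Actn4 and Tpm4) were lower at an unadjusted p-value under 0.05 in edgeR, against 6.92% of all genes. The same 2 had groups without overlap, against 18.4% of all genes. Without WT 2, 1 of the 3 genes was below the unadjusted threshold, in a fit where 1222 of 15970 genes were.

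Of 6 markers of fibroblasts, cells that use these non-muscle forms, 3 were lower at an unadjusted p-value under 0.05 in edgeR (Dcn, Col1a2 and Col1a1), against 6.92% of all genes. The 6 had a summed level of 2270, 1709 and 1740 CPM in WT and 1151, 1597 and 1521 CPM in M92KO, without overlap. Dcn, the matrix proteoglycan decorin, had a log2 fold change of -0.33 (SE 0.08, adjusted p = 0.188 by edgeR), and the collagen genes Col1a2 and Col1a1 had -0.53 (SE 0.17) and -0.55 (SE 0.20). Without M92KO 1 the log2 fold changes of Dcn, Col1a2 and Col1a1 were -0.27, -0.44 and -0.45. The 3 that did not pass were Col3a1 (-0.38, SE 0.18), Lum (-0.38, SE 0.22) and Pdgfra (-0.10, SE 0.10), at -0.19, -0.16 and 0.01 without M92KO 1. The number below the threshold was 2 without WT 1 or M92KO 1 and 5 without M92KO 2. Over all genes it was 1600 without WT 1, 2984 without M92KO 1 and 1691 without M92KO 2. Markers of smooth muscle (0 of 6 below the threshold) summed to between 369 and 378 CPM in WT and between 363 and 400 CPM in M92KO, those of fat cells to between 313 and 364 and between 312 and 391 CPM, those of red cells to between 74.0 and 223 and between 143 and 336 CPM, and those of immature fibres and satellite cells (1 of 6, Pax7) to between 348 and 401 and between 356 and 386 CPM. Without WT 3, 3 of 5 fat-cell markers were higher at the unadjusted threshold (2 without M92KO 3), and without M92KO 2, 3 of 5 red-cell markers were. In either direction, 1272 of 15997 genes were below it without WT 3, 10.6% without M92KO 3 and 1691 of 16067 without M92KO 2. After adjustment 0 markers of these cell types passed in edgeR, and 1 fibroblast marker passed in DESeq2. The part of these cells in the Tpm3 difference was not tested.

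**Figure D5:**
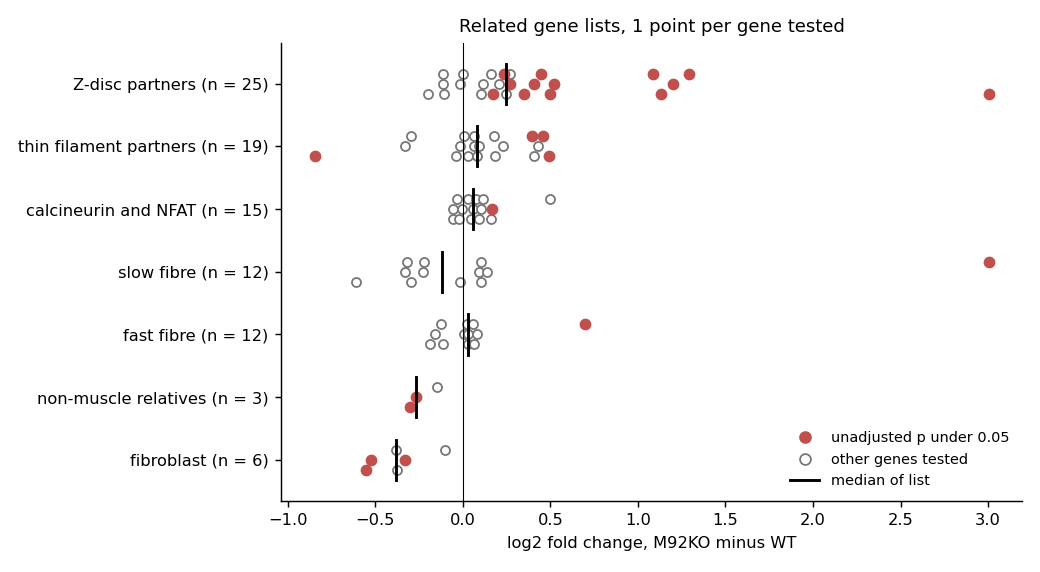
Log2 fold change, M92KO minus WT (horizontal axis), of each gene tested in 7 lists (rows), with genes at an unadjusted p-value under 0.05 filled red and the median of each list as a black bar. In the list of 25 Z-disc partners all 13 filled points are above 0, with Csrp3 at 3.0, whereas the filled points of the non-muscle relatives and the fibroblast markers are under 0.

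Annotated 3′-UTRs of the 8 genes were searched for 7-base and 8-base matches to the seeds of the deleted microRNA. The site strings were GTGCAATA, GTGCAAT and TGCAATA for miR-92b-3p, and CCGTCCCA, CCGTCCC and CGTCCCA for miR-92b-5p. A match was present in 1 of the 8 genes for each form, and in 13.2% (3p) and 4.5% (5p) of the 20900 genes with such a UTR. The 2 sites are shown because they are the sole ones among the members, on the strand of the transcript with the match in capitals.
Actn2 (3p, chr13:12269445-12269473, minus strand): ccctatcagaaTGCAATAaaggctgaagt
Tpm2 (5p, chr4:43514991-43515019, minus strand): gtctcctaacaCGTCCCAggtcccctaac
Both are 7-base matches that end in an A opposite the first base of the microRNA, and each lies in 2 annotated transcripts. The Actn2 site overlaps AATAAA, the letters of the polyadenylation signal, near the end of its UTR. Actn2 was thus a gene with a 3p match and a higher mean in M92KO, Tpm2 a gene with a 5p match and a log2 fold change of 0.06 (SE 0.09), and Myoz2 a gene with a higher mean and neither match. A match is a description of the letters and not a site shown to be bound.

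Promoter windows from RefSeq (GRCm38.p6), from 250 bases before to 50 bases after the start, were searched for Actn2, Tpm1, Tpm2 and Tpm3, in 5 windows. The search covered both strands and the CArG box, the E-box CAGCTG and, chosen after the sequences had been read, CACGTG. Actn3, Myoz1 and Myoz3 had no window among those used and were not searched. The matches in Actn2, the sole gene of the 4 with CACGTG, are shown in 30 bases each on the strand of the gene, with the match in capitals.
Actn2 CACGTG, near (chr13:12340763-12340792, minus strand): tggggccggcagCACGTGactctcagcggg
Actn2 CACGTG, far (chr13:12340799-12340828, minus strand): gccagccaaccaCACGTGttggagacgggg
The Actn2 matches begin 48 and 84 bases before the start, and CACGTG was in 7.15% of the 32851 promoter windows. CAGCTG (16.3% of windows) was in the windows of Tpm2 and Tpm3, and the CArG box (1.63% of windows) in 0 of the 5. A match describes the letters of the window and nothing about a factor.

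Among 8744 other genes with a mean of at least 10 CPM, those whose log2 CPM followed each member most closely over the 6 libraries were taken by Pearson's r, as a description, since these are the highest of many values, over few libraries that share their scaling. Actn2 was followed by St7 (r = 0.999), 2310002L09Rik (0.998) and Rap1a (0.998), and Myoz2 by Ubl4a (0.999), the formin Fhod3 (0.999), which assembles actin filaments in the sarcomere, and Nampt (0.997). Actn3 was followed by H2az2 (0.989), Mpv17 (0.981) and Mgme1 (0.980), the last 2 of them genes of mitochondrial DNA upkeep. Myoz1 was followed by Trappc1 (0.995), Sf3b5 (0.992) and Triobp (0.992), and Tpm1 by Sf3b5 (0.994), Cracr2b (0.993) and Igip (0.988), so that Sf3b5, a splicing factor subunit, was close to both. Myoz3 was followed by Fra10ac1 (0.980), the calcineurin subunit gene Ppp3cb (0.979) and Babam2 (0.975), Tpm2 by Hspa14 (0.993), Chic2 (0.981) and Smu1 (0.979), and Tpm3 by Atxn1 (0.993), D230025D16Rik (0.988) and Mapk1ip1l (0.986). The genes that followed Actn2, Myoz2 and Tpm3 had log2 fold changes nearer to 0 than the member in each case. Fhod3, for instance, was at 81.7, 80.2 and 73.3 CPM in WT and 78.4, 109 and 120 CPM in M92KO, a log2 fold change of 0.38 (SE 0.14) beside 0.78 for Myoz2.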

How the data were processed

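RNA of Gas muscles from 3 WT and 3 M92KO mice was sequenced (RNeasy extraction, SMARTer kit). The authors deposited counts, the unnormalized number of reads on each of 34714 gene symbols in each library, and per the labels the genome was GRCm38 (mm10). The aligner, the counting program and its use of strand are not given in the sources used here. All 6 sample columns were matched to samples by the labels. Genes were filtered with filterByExpr (minimum count 10, minimum total 15), scaled with TMM and compared without covariates by edgeR's quasi-likelihood test (edgeR 4.0.16, R 4.3.3), with Benjamini-Hochberg adjustment over all 15788 genes. The fit was checked on simulated data. CPM per kb used the median length of coding transcripts of GENCODE M21. Floors cover counting error only. Members and lists were chosen with earlier results of these data known. Genes named are the members, myosin heavy chains and Tnnt1, up to 4 genes per list with the smallest p-value under 0.05, and 3 genes per member with the highest r. Others named (Flnc, Fhl1, Xirp1, Myot, Ttn, Tcap, Capzb, Capza2, Acta1, Tnnt3, Tnni2, Tnnc2, Rcan1, Myl3, Casq2, Atp2a2, Col3a1, Lum, Pdgfra and genes named for a small count) were chosen after their values were seen. Counts of genes and fold changes of members were also computed with the Wald test of DESeq2 1.42.0, with its size factors put into edgeR, without a filter, with at least 10 counts in every library, with the study's own steps (quantile normalization, log2 after adding 1, limma 3.58.1), with the replicate number as a block, after thinning to the smallest library, from counts without division by length for shares, and with each library left out, with fewer of these for shares and overlaps and only left-out libraries and the study's steps for cell type markers (chosen after seeing the data). The labels give no batch or date. Same-numbered WT and M92KO libraries had correlations of their deviations of 0.081, 0.038 and 0.015, so they were not treated as pairs. Protein sequences were not used here. The promoter of Myoz2 and 1 list of cell type markers are not reported here.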

Additional observations from a re-analysis of the deposited data

How the results depend on the processing

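Over 104 alternative values of the members' log2 fold changes, 4 turned in sign, all of them of Myoz1 or Tpm1, whose values lay near 0. The steps of the study methods put Myoz1 at -0.16 and left 1 member, 7 Z-disc partners and 0 fast-fibre genes below the unadjusted threshold of 0.05, with 2287 genes in all. DESeq2's Wald test left 0 calcineurin and NFAT genes, and without the filter on low counts 2 slow-fibre genes were below it. The cause of these moves was not tested. The other 116 values under another setting were not counted as moved, though some differed from the main one. With the steps of the study methods the log2 fold change of Actn2 was 0.43 (SE 0.23), against 0.64 in the main fit. That of Actn3 was -0.26 (SE 0.21), against -0.14, and that of Myoz2 was 0.69 (SE 0.33), against 0.78. With the replicate number as a block the slow-fibre count was 2, the count over all genes 1691, and that of Z-disc partners 10. The numbers did not pair the libraries, and not every library correlated best with the one of its own number. Leaving out 1 library at a time, the number of genes below the threshold ran from 1222 (without WT 2, 1272 without WT 3) to 2984 (without M92KO 1), that of members from 1 to 3, of members without overlap from 1 to 3, of Z-disc partners from 10 to 16, of thin filament partners from 3 to 11, of non-muscle relatives from 1 to 2, of calcineurin and NFAT genes from 0 to 5, of slow-fibre genes from 1 to 3 and of fast-fibre genes from 0 to 3. Thinning every library to the smallest total left 3 members below the threshold.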
